A study of Xenopus laevis with 6 samples.

Results

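Transcripts of the bone morphogenetic protein (BMP) pathway were measured along the hind limb bud of wild type, untreated Xenopus laevis tadpoles (African clawed frog) at stage 51. X. laevis is an allotetraploid, so that many genes are present as an L and an S copy on separate chromosomes. The set held 36 gene copies of 23 genes, 13 of them with both copies, out of 51061 gene IDs counted. A copy was taken by its name in the authors' deposited table of calls, if that name was one of a BMP or GDF ligand, a BMP receptor, a chordin, noggin, gremlin or follistatin family member, bmper, smad6, smad7, smad9, an id gene or an msx gene. That table names 6943 gene IDs and lists only genes the authors called between some pair of segments. Each of the 36 copies had therefore been called in these libraries before it was chosen, and the counts of calls below describe where the copies differed and are not independent evidence that they did. Of 64 RefSeq symbols that match the same name pattern, 28 were outside the table and were not analysed here, among them bmp2.L, bmp4.L and both copies of bmpr1a and bmpr2.

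The limb buds were divided into distal, medial and proximal segments. Each segment was represented by 2 replicate pools of 30 hind limbs, called pool 1 and pool 2 here, and 1 ug of total RNA went into each of the 6 libraries. The libraries held 10815041 (proximal pool 1) to 35479915 (proximal pool 2) fragments assigned to genes, and a level of 3 counts corresponded to 0.0840 to 0.283 CPM (counts relative to the library total, scaled with TMM factors). That floor covers counting error only. The p-values measure the spread between pools, since single limbs or animals were not sequenced. Markers of the apical ectodermal ridge (the signalling epithelium at the limb tip; 11 copies, among them fgf8 and sp8) summed to 254 to 270 CPM in distal, 89.4 to 134 CPM in medial and 85.4 to 88.4 CPM in proximal libraries. The ridge sum joins copies of unlike change, 10 called higher and 1 called lower in distal than in proximal. From distal to proximal, sp8.L went from a mean of 83.4 to 39.8 CPM and fgf8.L from 30.0 to 1.57 CPM. Markers of cartilage (10 copies, among them sox9 and col2a1) summed to 577 to 583 CPM in distal, 960 to 1206 CPM in medial and 1196 to 1438 CPM in proximal libraries. Limb mesenchyme markers (15 copies, among them prrx1 and pitx1) summed to 1380 to 1444 CPM in distal, 1597 to 1717 CPM in medial and 1893 to 1919 CPM in proximal libraries. That sum joins copies of opposite direction, 4 called higher and 10 called lower in distal than in proximal: hoxa13.L averaged 206 CPM in distal and 12.5 CPM in proximal, and meis2.L averaged 28.9 CPM in distal and 250.4 CPM in proximal. Marker copies were found through the same table of calls, so the lists hold only genes called in some comparison.

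BMPs and the related growth and differentiation factors (GDFs) are secreted ligands of the TGF-beta superfamily. They bind paired type I and type II receptor kinases, which phosphorylate SMAD1, SMAD5 and SMAD9, and these enter the nucleus with SMAD4 to induce targets such as the id and msx genes. Secreted proteins such as noggin, gremlin and the chordins hold the ligands away from their receptors, while SMAD6 and SMAD7 restrain the signal inside the cell. In vertebrate limbs the pathway is known for shaping the apical ridge, for the formation of cartilage and joints and for the removal of tissue between digits.

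The comparison of the 2 ends of the limb bud showed ligands of both directions and antagonists that were mostly lower at the tip. Between distal and proximal segments, 27 of the 36 copies were called by edgeR's quasi-likelihood test (Benjamini-Hochberg adjusted p under 0.05), 6 higher and 21 lower in distal. The background was 29.5% of all 27007 genes tested (13.6% higher, 15.9% lower) and 88.3% of those named in the authors' deposited table (39.3% higher, 49.0% lower). All 36 copies had passed the filter on low counts. The median log2 fold change (distal over proximal) of the copies was -0.64, beside -0.00 for all genes tested, and 18 of the called copies differed by at least 2-fold, 2 higher and 16 lower in distal, against a background of 13.7% of all genes tested and 44.8% of named genes. Between distal and medial segments, 30 copies were called, 10 higher and 20 lower in distal, against a background of 25.0% of all genes tested (12.1% higher, 12.9% lower) and 76.8% of named genes (35.6% higher, 41.1% lower). The median log2 fold change was -0.44, and 17 copies differed by at least 2-fold (4 higher, 13 lower), with backgrounds of 10.5% of all and 34.7% of named genes. Between medial and proximal segments, 20 copies were called, 3 higher and 17 lower in medial, against a background of 7.60% of all genes tested (2.73% higher, 4.88% lower) and 26.6% of named genes (9.82% higher, 16.7% lower). The median log2 fold change was -0.35, and 5 copies differed by at least 2-fold, all lower in medial, with backgrounds of 3.62% of all and 12.3% of named genes. In the authors' deposited table the copies were listed 26 times for the first of these comparisons, 29 times for the second and 16 times for the third, and each of these calls was also made here with the same sign. The 20 copies called here between medial and proximal segments fell to 12 without proximal pool 1 and to 11 without proximal pool 2. The comparisons share libraries, so they are given side by side and not set against each other.

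The highest mean level of a copy lay in the distal segment for 10 copies, in the medial segment for 5 and in the proximal segment for 21. That was 27.8%, 13.9% and 58.3% of the set, beside 42.9%, 21.9% and 35.2% of named genes. Among all genes tested the shares were 41.1%, 26.1% and 32.8%. The lowest mean lay in the distal segment for 21 copies, in the medial segment for 13 and in the proximal segment for 2. Lowest means in distal and in proximal made up 58.3% and 5.56% of the set, beside 50.7% and 31.5% of named genes. Among all genes tested these shares were 40.4% and 32.0%. Copies with their lowest mean in the medial segment thus made up 36.1% of the set, beside 17.8% of the named genes and 27.5% of all genes tested. These shares describe the set and carry no test, and in bulk segments fewer cells of a type and less RNA per cell cannot be told apart.

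**Figure D1:**
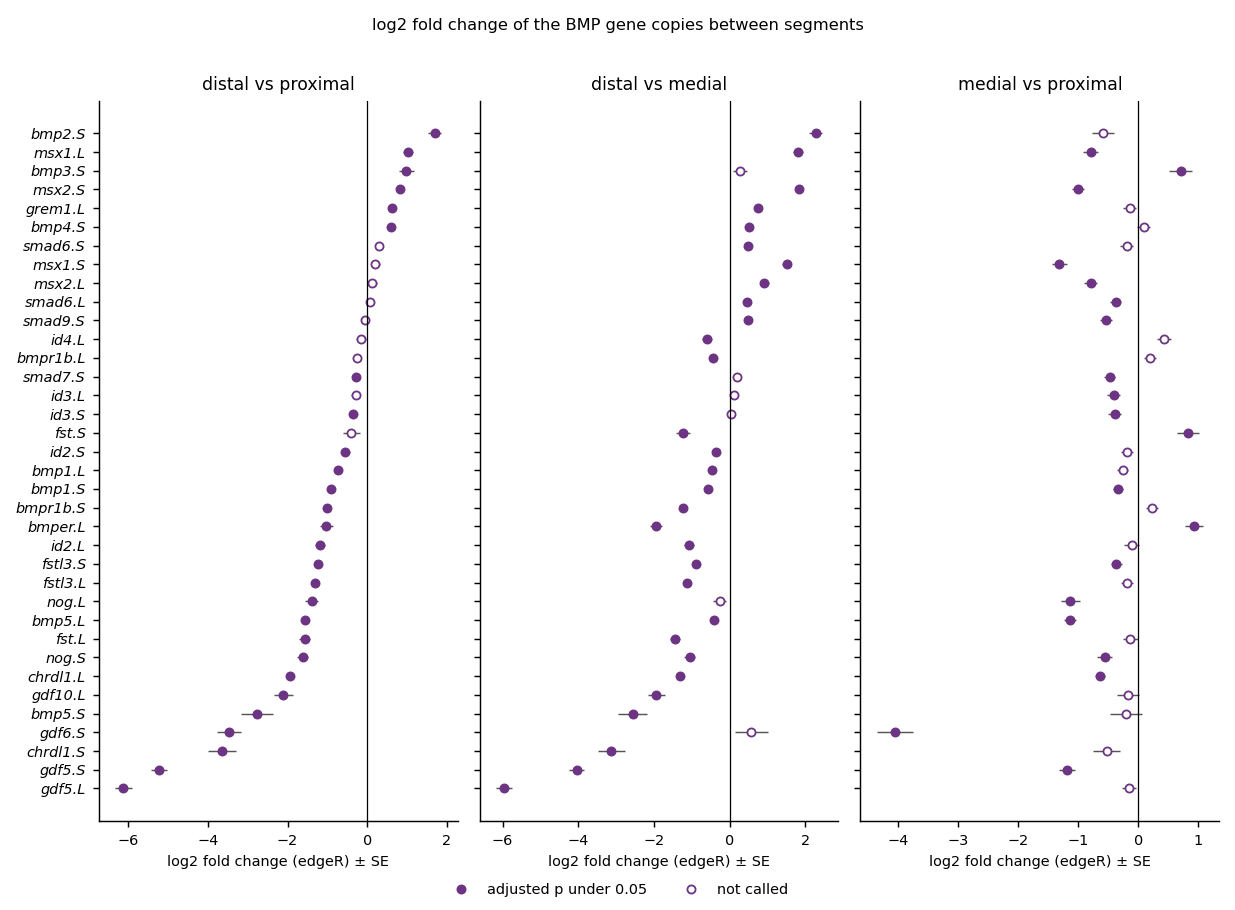
The log2 fold change ± SE from edgeR (x axis) of each of the 36 BMP gene copies (y axis) is plotted for distal over proximal, distal over medial and medial over proximal segments. Filled points have an adjusted p under 0.05; in the first panel 6 filled points lie right of 0 and 21 lie left of it, with both gdf5 copies farthest to the left.

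Among the ligands, bmp2.S and bmp4.S were higher at the tip and the bmp5, gdf5 and gdf10 copies were lower there. All 9 ligand copies were called between distal and proximal segments, 3 higher and 6 lower in distal. Of the same 9, 7 were called between distal and medial (2 higher, 5 lower) and 4 between medial and proximal (1 higher, 3 lower). The background among named genes, from which the ligands were taken, was 88.3%, 76.8% and 26.6% in these comparisons, and 29.5%, 25.0% and 7.60% among all genes tested, so the counts are given as a description.

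The ligand gene bmp2.S (chromosome 5S, 26311101 to 26323987 in the coordinates of the authors' count table, whose build is not given in the sources used here) is an early BMP ligand of limb mesenchyme and ridge in mouse and chick. It was at 29.0 and 30.7 CPM in the distal pools, 7.48 and 4.86 CPM in the medial pools and 8.88 and 9.52 CPM in the proximal pools. Both distal pools were thus above all 4 others, and the medial pools were the lowest. As a log2 fold change this was 1.68 (edgeR adjusted p = 2.77e-05, SE 0.17) for distal over proximal and 2.27 (edgeR adjusted p = 4.65e-06, SE 0.17) for distal over medial. For medial over proximal it was -0.59 (edgeR adjusted p = 0.0866), and without medial pool 1 it was -0.93 and called (edgeR adjusted p = 0.00187). Exons of bmp2.S overlap those of an unnamed gene on the same strand over 522 bp, and fragments assigned to both genes were not counted.

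Its close relative bmp4.S (chromosome 8S, 13731520 to 13737123) was at 48.8 and 50.9 CPM in distal, 36.5 and 33.1 CPM in medial and 35.04 and 30.97 CPM in proximal pools. The distal pools stood above the rest, while medial and proximal pools overlapped. The distal excess was smaller than that of bmp2.S, with a log2 fold change of 0.60 (edgeR adjusted p = 0.000878, SE 0.10) over proximal and 0.52 (edgeR adjusted p = 0.00280) over medial. The third ligand of this direction was bmp3.S, a BMP that in mammals is described as opposing bone formation. Its level was 6.43 and 5.54 CPM in distal, 5.36 and 4.61 CPM in medial and 3.31 and 2.91 CPM in proximal pools, so that its mean was lowest in proximal rather than in the middle. Between distal and medial it was not called (log2 fold change 0.27, edgeR adjusted p = 0.301). It was higher in distal than in proximal segments (log2 fold change 0.98, edgeR adjusted p = 0.00288), a call that was lost without distal pool 1 or without proximal pool 2 (highest adjusted p 0.0562 by edgeR). Its medial excess over proximal (log2 fold change 0.71, edgeR adjusted p = 0.0494) was lost under 8 of the 12 alternatives tried.

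The gdf5 copies showed the widest range of the set. GDF5 is a ligand of developing joints and of digit cartilage, and in mouse its loss shortens the digits. The L copy (chromosome 9_10L, 3929396 to 3932870) was at 0.459 and 0.405 CPM in distal pools, from 11 and 6 counts, against 24.4 and 30.9 CPM in medial and 30.0 and 31.3 CPM in proximal pools. The S copy (chromosome 9_10S, 3619198 to 3622399) was at 0.751 and 0.675 CPM in distal, 11.1 and 12.8 CPM in medial and 24.8 and 29.2 CPM in proximal pools. Both copies were low at the tip, and they parted between the other segments: for gdf5.L the medial and proximal pools overlapped, whereas for gdf5.S both medial pools lay below both proximal pools. The log2 fold change of distal over proximal was -6.12 (edgeR adjusted p = 6.75e-09, SE 0.21) for gdf5.L and -5.23 (edgeR adjusted p = 1.16e-08, SE 0.20) for gdf5.S. Between medial and proximal segments gdf5.S was lower in medial (log2 fold change -1.18, edgeR adjusted p = 0.000150, SE 0.13), and gdf5.L had a log2 fold change of -0.15 (edgeR adjusted p = 0.615). The cartilage marker sum was also lower in the distal libraries, and its part in the gdf5 result was not tested.

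The related ligand gdf6.S (chromosome 6S, 107763441 to 107788464), known in mouse for joints of the ankle and skull, was at 0.501 and 1.15 CPM in distal, 0.477 and 0.544 CPM in medial and 7.65 and 9.21 CPM in proximal pools. It was thus low in the distal and medial pools and high in the proximal pools, unlike gdf5. On the log2 scale the fold change was -3.48 (edgeR adjusted p = 7.52e-06, SE 0.31) for distal over proximal and -4.05 (edgeR adjusted p = 1.01e-05, SE 0.31) for medial over proximal. Distal and medial pools overlapped.

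A stepwise order was seen for bmp5.L (chromosome 5L, 91329450 to 91394483). BMP5 marks skeletal condensations in mouse. The copy was at 13.5 and 13.4 CPM in distal, 16.9 and 19.2 CPM in medial and 40.0 and 39.5 CPM in proximal pools, with no overlap between segments. It fell by 1.56 on the log2 scale in distal relative to proximal (edgeR adjusted p = 9.50e-07, SE 0.11) and by 1.13 in medial relative to proximal (edgeR adjusted p = 3.50e-05). Its smaller difference between distal and medial (log2 fold change -0.42, edgeR adjusted p = 0.0137) was lost without distal pool 1, without distal pool 2 or without medial pool 2 (highest adjusted p 0.105 by edgeR). The S copy was rare, at 0.209 and 0.270 CPM in distal (5 and 4 counts), 1.39 and 1.42 CPM in medial and 1.61 and 1.62 CPM in proximal pools. It was lower in distal than in either other segment (log2 fold change -2.77 against proximal, edgeR adjusted p = 0.000284). The last ligand, gdf10.L (also called BMP3b), was at 1.34 and 1.01 CPM in distal, 4.55 and 4.68 CPM in medial and 5.19 and 5.18 CPM in proximal pools. It was lower in distal than in proximal segments by a log2 fold change of -2.10 (edgeR adjusted p = 3.75e-05, SE 0.23).

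Scaled by annotated exon length, the 9 ligand copies together were at 37.8 ± 0.743 CPM per kb in distal, 52.0 ± 2.44 CPM per kb in medial and 74.4 ± 1.5 CPM per kb in proximal segments (SD, n = 2 each). The makeup of that sum changed along the limb bud. The copies bmp2.S, bmp3.S and bmp4.S supplied 79.9% of it in distal, 32.0% in medial and 22.3% in proximal segments. The bmp5, gdf5, gdf6 and gdf10 copies summed to 7.59 CPM per kb in distal, 35.4 CPM per kb in medial and 57.9 CPM per kb in proximal segments. These sums leave out ligand copies not in the set, such as bmp4.L and bmp7.1.L, and describe 9 copies only. The copy bmp7.1.L was at 29.7 CPM per kb in distal, 11.7 CPM per kb in medial and 15.2 CPM per kb in proximal segments. In distal this was above each of the 9 copies. The rise towards proximal is therefore given for the 9 copies only, and a sum over all ligands was not made.

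**Figure D2:**
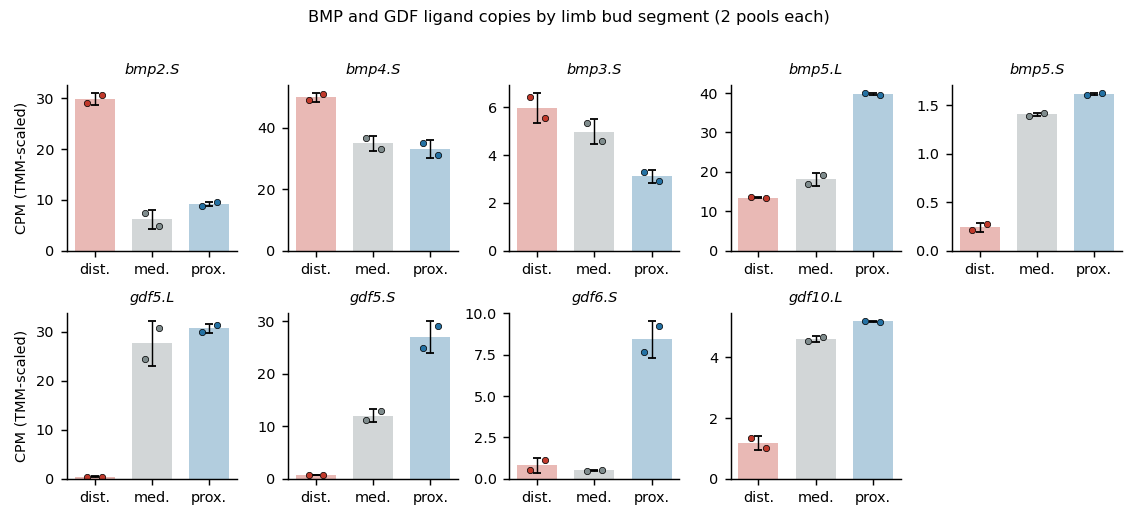
Levels of the 9 ligand copies (y axis, TMM-scaled CPM) are shown for the distal, medial and proximal segments (x axis), with points for the 2 pools, bars for the mean and error bars for the SD. The copies bmp2.S and bmp4.S are highest in distal, gdf5.L and gdf5.S are below 1 CPM there, and gdf6.S is high in the proximal pools.

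Of the 10 copies of secreted antagonists and modulators, grem1.L was the one that was higher at the tip. Between distal and proximal segments 9 of the 10 were called, 1 higher and 8 lower in distal, and between distal and medial segments also 9, again 1 higher and 8 lower. Between medial and proximal segments 6 were called, 2 higher and 4 lower in medial. Of named genes 88.3%, 76.8% and 26.6% were called in these comparisons (29.5%, 25.0% and 7.60% of all genes tested), beside 90%, 90% and 60% of the 10 copies. The first count is near the named share. Of named genes 39.3% were higher and 49.0% lower in distal than in proximal, and 35.6% and 41.1% against medial. In the third comparison the calls of nog.S, fst.S and fstl3.S were lost under some alternatives, given below. Marker sums of nerve and glia (6 copies; 0.878 to 0.960 CPM in distal, 13.03 to 21.9 CPM in medial and 23.3 to 25.8 CPM in proximal libraries) and of muscle (11 copies; 4.53 to 15.5, 16.6 to 19.0 and 34.5 to 58.3 CPM) were also lower in distal. Endothelial markers (7 copies) summed to 79.6 to 80.4 CPM in distal, 71.1 to 76.9 CPM in medial and 114.3 to 117.4 CPM in proximal libraries. Between distal and proximal segments 6 of 6 nerve and glia copies, 8 of 11 muscle copies and 6 of 7 endothelial copies were called lower in distal. The muscle sum joins copies of unlike change, and its 2 distal pools differed. The muscle copy mylpf.L was at 4.59 and 0.405 CPM in distal pools and at 0.183 and 0.145 CPM in medial pools. Against medial, 7 of the 11 muscle copies were called lower in distal and 0 higher. The part of these tissues in the antagonist results was not tested.

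Gremlin is a BMP antagonist that in mouse and chick keeps the ridge and the posterior limb signalling centre active. The copy grem1.L (chromosome 8L, 88217256 to 88232584) was at 78.6 and 73.1 CPM in distal, 46.7 and 43.3 CPM in medial and 54.7 and 45.3 CPM in proximal pools. Both distal pools were above the others, and medial and proximal pools overlapped. Its log2 fold change was 0.61 (edgeR adjusted p = 0.00125, SE 0.11) for distal over proximal and 0.75 (edgeR adjusted p = 0.000370, SE 0.11) for distal over medial. In size this was close to the change of bmp4.S and below that of bmp2.S, a difference that was not tested.

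Noggin binds BMPs and GDF5 and in mouse is needed for joints to form between digit bones. The L copy (chromosome 9_10L, 27175157 to 27176998) was at 4.38 and 4.46 CPM in distal, 5.94 and 4.68 CPM in medial and 12.1 and 11.3 CPM in proximal pools. The S copy, on an unplaced scaffold, was at 5.38 and 5.81 CPM in distal, 10.9 and 12.3 CPM in medial and 16.5 and 17.5 CPM in proximal pools. Both copies were highest in proximal pools, and for nog.S the segments followed each other stepwise without overlap. Distal was below proximal by a log2 fold change of -1.40 (edgeR adjusted p = 8.18e-05, SE 0.17) for nog.L and -1.62 (edgeR adjusted p = 5.83e-06, SE 0.14) for nog.S. Between medial and proximal nog.L was lower in medial (log2 fold change -1.13, edgeR adjusted p = 0.000960). For nog.S this difference (log2 fold change -0.56, edgeR adjusted p = 0.0175) was lost with DESeq2 (adjusted p = 0.0825) and without medial pool 1, proximal pool 1 or proximal pool 2 (highest adjusted p 0.175 by edgeR).

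Chordin-like 1 is a secreted BMP binder of the chordin family. The copy chrdl1.L (chromosome 8L, 29625912 to 29733409) was at 29.7 and 31.4 CPM in distal, 76.0 and 74.7 CPM in medial and 123 and 112 CPM in proximal pools. This was the highest antagonist per length in the proximal segment, at 39.7 CPM per kb against 21.0 CPM per kb for grem1.L. In the distal segment the order was the other way, with 10.3 CPM per kb for chrdl1.L and 31.9 CPM per kb for grem1.L. For chrdl1.L the log2 fold change was -1.94 (edgeR adjusted p = 8.67e-08, SE 0.10) for distal over proximal, -1.30 (edgeR adjusted p = 2.34e-06) for distal over medial and -0.64 (edgeR adjusted p = 0.00102) for medial over proximal. The S copy was rare, at 0.250 and 0.203 CPM in distal (6 and 3 counts), 2.02 and 2.10 CPM in medial and 2.93 and 2.996 CPM in proximal pools, and was also lower in distal (log2 fold change -3.65 against proximal, edgeR adjusted p = 1.32e-05).

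Follistatin and follistatin-like 3 bind activins with high affinity and some BMPs more weakly. The copy fst.L was at 8.64 and 6.96 CPM in distal, 23.2 and 19.8 CPM in medial and 23.5 CPM in both proximal pools. The copy fst.S was at 4.55 and 3.11 CPM in distal, 8.77 and 9.65 CPM in medial and 5.48 and 4.98 CPM in proximal pools. Both copies had their lowest mean in distal, but fst.S peaked in the medial segment and fst.L did not. Against medial, distal was lower by a log2 fold change of -1.44 for fst.L (edgeR adjusted p = 1.65e-05) and -1.23 for fst.S (edgeR adjusted p = 0.000663). Against proximal, fst.L was lower in distal (log2 fold change -1.58, edgeR adjusted p = 6.46e-06). The copy fst.S was not called there (log2 fold change -0.40, edgeR adjusted p = 0.167). The medial excess of fst.S over proximal (log2 fold change 0.83, edgeR adjusted p = 0.0163) was lost without proximal pool 1 (edgeR adjusted p = 0.0591) or proximal pool 2 (edgeR adjusted p = 0.182). Exons of fst.S overlap an unnamed gene on the same strand over 1193 bp.

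The fstl3 copies moved alike. The L copy was at 32.4 and 28.5 CPM in distal, 70.3 and 62.8 CPM in medial and 81.3 and 70.8 CPM in proximal pools. The S copy was at 18.5 and 18.8 CPM in distal, 34.6 and 34.1 CPM in medial and 46.3 and 42.5 CPM in proximal pools. Distal was below proximal by a log2 fold change of -1.31 (edgeR adjusted p = 5.44e-06) for fstl3.L and -1.25 (edgeR adjusted p = 2.56e-06) for fstl3.S. The call of fstl3.S as lower in medial than in proximal (log2 fold change -0.36, edgeR adjusted p = 0.0322) was lost with DESeq2 and in each fit that left out a pool (highest adjusted p 0.156 by edgeR). Bmper, the vertebrate crossveinless-2, is a modulator that can hold or deliver BMPs, and it was the other antagonist or modulator copy with a medial peak. It was at 4.51 and 3.38 CPM in distal, 16.4 and 14.8 CPM in medial and 8.22 and 8.15 CPM in proximal pools, without overlap between segments. For bmper.L the log2 fold change was -1.96 (edgeR adjusted p = 6.08e-06, SE 0.16) for distal over medial and 0.93 (edgeR adjusted p = 0.00224, SE 0.15) for medial over proximal. Its exons overlap an unnamed gene on the opposite strand over 294 bp, and the counting used no strand.

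Per length, the 10 antagonist and modulator copies summed to 65.1 ± 2.77 CPM per kb in distal, 94.9 ± 3.91 CPM per kb in medial and 121.5 ± 7.82 CPM per kb in proximal segments (SD, n = 2 each). The share of grem1.L in this sum was 49.0% in distal, 19.9% in medial and 17.3% in proximal segments. These values leave out antagonists outside the set, described below. Among those, nbl1.L alone was at 130.6, 37.5 and 28.0 CPM per kb in distal, medial and proximal segments, above the sum of the 10 copies in distal. In the other direction, smoc1.L was at 6.83, 16.7 and 36.8 CPM per kb and sostdc1.S at 3.13, 32.0 and 36.0 CPM per kb. The other copy, sostdc1.L, was at 14.2, 14.2 and 23.0 CPM per kb, above sostdc1.S in distal. The sum and the share therefore describe these 10 copies only.

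**Figure D3:**
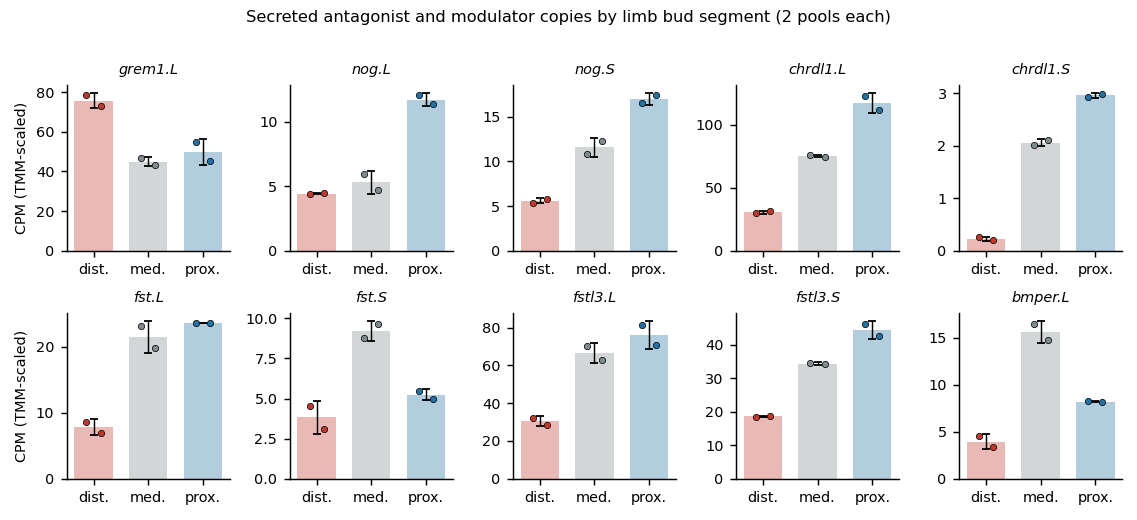
Levels of the 10 secreted antagonist and modulator copies (y axis, TMM-scaled CPM) are shown by segment (x axis: distal, medial, proximal), with points for the 2 pools, bars for the mean and error bars for the SD. The distal bar is the highest for grem1.L and the lowest for the other 9 copies, and fst.S and bmper.L peak in the medial segment.

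The 2 receptor copies in the set belong to bmpr1b, a type I receptor that in mouse is needed for digit cartilage. The copy bmpr1b.L (chromosome 1L, 69948851 to 70207180) was at 27.0 and 24.7 CPM in distal, 33.8 and 37.0 CPM in medial and 32.8 and 29.3 CPM in proximal pools. The copy bmpr1b.S (chromosome 1S, 64469506 to 64665785) was at 14.9 and 15.9 CPM in distal, 34.0 and 38.8 CPM in medial and 30.1 and 31.7 CPM in proximal pools. Both copies were lowest in distal and highest in medial, with the larger drop in the S copy. For bmpr1b.S the log2 fold change was -1.01 (edgeR adjusted p = 3.26e-05, SE 0.11) for distal over proximal and -1.24 (edgeR adjusted p = 7.97e-06, SE 0.11) for distal over medial. For bmpr1b.L it was -0.25 (edgeR adjusted p = 0.0949) and -0.45 (edgeR adjusted p = 0.00787) in these comparisons, and the call against medial was lost without distal pool 2 (edgeR adjusted p = 0.0849). Neither copy was called between medial and proximal segments, with unsigned changes of up to 1.17-fold (edgeR adjusted p = 0.250 and 0.361).

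The msx genes, homeobox genes induced by BMP signals at the limb tip and in the ridge, were lowest in the medial segment in all 4 copies. The copy msx1.L (chromosome 1L, 18323621 to 18326542) was at 49.9 and 48.2 CPM in distal, 15.6 and 12.6 CPM in medial and 26.7 and 22.6 CPM in proximal pools. The copy msx1.S (chromosome 1S, 16677362 to 16680071) was at 35.6 and 29.5 CPM in distal, 12.1 and 10.8 CPM in medial and 29.2 and 27.9 CPM in proximal pools. In both, each medial pool was below every other library. Distal was above medial by a log2 fold change of 1.80 (edgeR adjusted p = 1.50e-06, SE 0.12) for msx1.L and 1.51 (edgeR adjusted p = 4.55e-06, SE 0.12) for msx1.S. Medial was below proximal by -0.79 (edgeR adjusted p = 0.00224) for msx1.L and -1.31 (edgeR adjusted p = 4.34e-05) for msx1.S. Distal was above proximal for msx1.L (log2 fold change 1.01, edgeR adjusted p = 7.61e-05), while msx1.S had a log2 fold change of 0.20 (edgeR adjusted p = 0.224) there.

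The msx2 copies followed, with the L and S roles exchanged in the distal excess over proximal and over medial segments. It was larger in the S copy of msx2 and in the L copy of msx1. Over medial, the difference between the msx1 copies was not called (limma adjusted p = 0.132, in the test of copies described below). The copy msx2.L (chromosome 3L, 35724361 to 35735073) was at 129 and 138 CPM in distal, 63.1 and 78.4 CPM in medial and 119 and 125 CPM in proximal pools. The copy msx2.S (chromosome 3S, 102498068 to 102508194) was at 132 and 131 CPM in distal, 40.4 and 34.4 CPM in medial and 78.0 and 71.8 CPM in proximal pools. The medial pools were again the lowest of the 6 libraries in both copies. In log2 fold change, distal over medial was 0.92 (edgeR adjusted p = 0.000111, SE 0.11) for msx2.L and 1.82 (edgeR adjusted p = 4.08e-07, SE 0.10) for msx2.S. Medial was lower than proximal in both, by -0.79 (edgeR adjusted p = 0.000914) and -1.0 (edgeR adjusted p = 0.000104). Against proximal, distal was higher for msx2.S (log2 fold change 0.82, edgeR adjusted p = 9.22e-05), and msx2.L had a log2 fold change of 0.13 (edgeR adjusted p = 0.425).

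Beside the levels of bmp2.S, grem1.L and the msx copies, which were higher in distal than in medial segments, the apical ridge marker sum given above was higher in the distal libraries, as was the sum of 6 epidermal marker copies (184 to 191 CPM in distal, 67.7 to 119 CPM in medial and 103 to 110 CPM in proximal libraries). Of the 11 ridge marker copies, 10 were called higher and 1 lower in distal than in proximal segments, and of the 6 epidermal copies 4 were called higher. The background was 39.3% of named genes higher and 49.0% lower in distal (13.6% and 15.9% of all genes tested). Beside the low medial msx levels, red blood cell markers (17 copies) summed to 49184 to 56488 CPM in medial, against 26537 to 36966 CPM in proximal libraries, and to 1115 to 2273 CPM in distal libraries. Only 1 of the 17 copies was called between medial and proximal segments, where 26.6% of named genes and 7.60% of all genes tested were called. Within the medial segment, pool 2 had the lower ridge and epidermal sums, and it also had less bmp2.S, msx1.L, msx1.S and msx2.S but more msx2.L than pool 1. The level of grem1.L was also lower in pool 2, at 46.7 CPM in pool 1 and 43.3 CPM in pool 2. These are single pools set side by side, and their differences were not tested. The part of these tissues in the results was not tested.

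The id genes, which encode inhibitors of basic helix-loop-helix factors and are direct targets of BMP-activated SMADs, differed among themselves in their pattern. The id2 copies had their lowest mean in distal, and the id3 copies had theirs in medial, as the msx copies did. The copy id2.L (chromosome 5L, 137094333 to 137097171) was at 49.9 and 38.8 CPM in distal, 91.1 and 96.3 CPM in medial and 108 and 94.8 CPM in proximal pools. Both distal pools were lowest, and medial and proximal pools overlapped. For id2.L the log2 fold change was -1.18 (edgeR adjusted p = 3.15e-05, SE 0.12) for distal over proximal and -1.07 (edgeR adjusted p = 8.69e-05, SE 0.12) for distal over medial. The S copy of id2 changed in the same direction but less, by -0.55 (edgeR adjusted p = 0.00181) and -0.36 (edgeR adjusted p = 0.0247), and the call against medial was lost without distal pool 1, distal pool 2 or medial pool 2 (highest adjusted p 0.217 by edgeR). The id3 copies were the most abundant targets, at 234 CPM per kb in distal, 229 CPM per kb in medial and 301 CPM per kb in proximal segments for id3.S and 119, 110 and 146 CPM per kb for id3.L. Distal and medial pools overlapped for both id3 copies. The calls of id3.L and id3.S as lower in medial than in proximal segments (log2 fold change -0.41 and -0.39, edgeR adjusted p = 0.0435 and 0.0403) were lost in most fits that left out a pool (highest adjusted p 0.176 and 0.145 by edgeR). So was the call of id3.S as lower in distal than in proximal (log2 fold change -0.36, edgeR adjusted p = 0.0206), without distal pool 1, distal pool 2 or proximal pool 1 (highest adjusted p 0.222 by edgeR). The copy id4.L was highest in medial, at 40.1 ± 1.07 CPM in distal, 60.8 ± 11.6 CPM in medial and 45.0 ± 0.825 CPM in proximal segments (SD, n = 2 each). Its distal level was below medial by a log2 fold change of -0.60 (edgeR adjusted p = 0.00410; adjusted p = 0.0639 by edgeR without distal pool 1).

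In all, 5 of the 9 target copies were called between distal and proximal segments (2 higher, 3 lower in distal), 7 between distal and medial (4 higher, 3 lower) and 6 between medial and proximal, all lower in medial. Of named genes, 88.3%, 76.8% and 26.6% were called in these comparisons (29.5%, 25.0% and 7.60% of all genes tested). Among the 4 SMAD copies, smad6.L, smad6.S and smad9.S had their lowest level in the medial segment, as smad7.S did. SMAD6 and SMAD7 inhibit BMP signalling and SMAD9 carries it. The level of smad9.S was 38.4 ± 1.28 CPM in distal, 27.6 ± 2.63 CPM in medial and 40.1 ± 1.20 CPM in proximal segments. The level of smad6.L was 31.0 ± 1.13 CPM in distal, 22.7 ± 0.317 CPM in medial and 29.5 ± 0.517 CPM in proximal segments (SD, n = 2 each). Distal was above medial for smad6.L, smad6.S and smad9.S, with log2 fold changes of 0.45, 0.49 and 0.48 (edgeR adjusted p = 0.00445, 0.00498 and 0.00468). Each of these 3 calls was lost without distal pool 1, with adjusted p of 0.0708, 0.0596 and 0.0683 by edgeR. Between distal and proximal only smad7.S of the 4 was called (log2 fold change -0.29, edgeR adjusted p = 0.0456), and that call was lost with DESeq2 and without any 1 of the distal or proximal pools. For smad6.S the log2 fold change of 0.29 (edgeR adjusted p = 0.0543) passed the threshold under 5 of the 12 alternatives tried (lowest adjusted p 0.0290 by edgeR, with a replicate block). Medial was below proximal for smad6.L, smad7.S and smad9.S (log2 fold change -0.38, -0.48 and -0.53). Of these, smad9.S held under every alternative tried, smad7.S was lost without proximal pool 2 (edgeR adjusted p = 0.0927), and smad6.L was lost with DESeq2, in a fit of only the 4 libraries compared and in each fit that left out a pool (highest adjusted p 0.187 by edgeR).

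The gene bmp1 shares the name but encodes a metalloproteinase that processes procollagen and cleaves chordin, and is no BMP ligand. Its copies were lower in distal, at 216 ± 6.95 CPM in distal, 301 ± 0.481 CPM in medial and 361 ± 2.19 CPM in proximal segments for bmp1.L and at 139 ± 4.27, 208 ± 6.49 and 263 ± 1.07 CPM for bmp1.S (SD, n = 2 each). The log2 fold change of distal over proximal was -0.74 for bmp1.L (edgeR adjusted p = 0.000112) and -0.92 for bmp1.S (edgeR adjusted p = 1.83e-05).

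**Figure D4:**
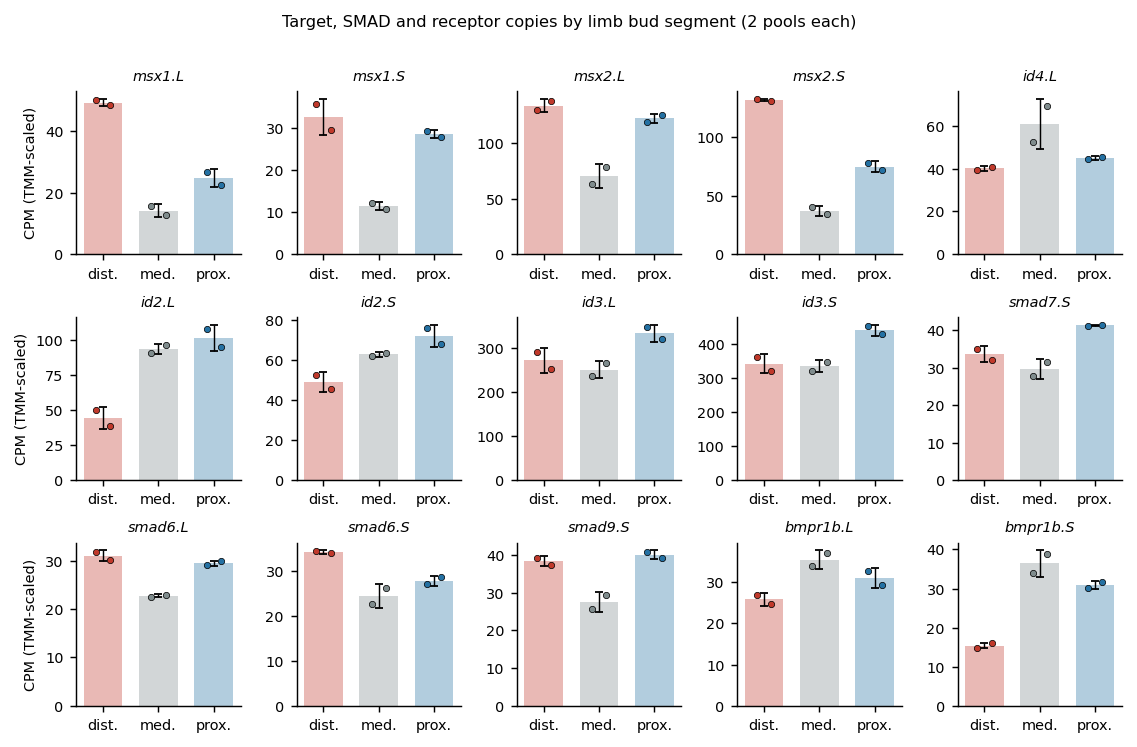
Levels of the msx, id, SMAD and bmpr1b copies (y axis, TMM-scaled CPM) are shown by segment (x axis: distal, medial, proximal), with points for the 2 pools, bars for the mean and error bars for the SD. The medial bar is the lowest for all 4 msx copies and all 4 SMAD copies, whereas the distal bar is the lowest for id2 and bmpr1b.

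For the 13 genes with both copies, the L and S copies could be compared within each library. In log2 fold change the copies had the same sign in all 13 genes between distal and proximal and between distal and medial segments, and in 12 of 13 between medial and proximal, where fst.L (-0.13) and fst.S (0.83) had opposite signs. The share of pairs with the same sign among all named pairs was not counted. These counts therefore describe the 13 genes and do not set them apart from other genes. A limma test on the within-library log2 difference of L and S, fitted over 1192 named pairs, called a difference between the copies for 8 of 13 genes between distal and proximal (background 42.5% of pairs). It called 7 of 13 between distal and medial (background 37.4%) and 3 of 13 between medial and proximal (background 20.3%). The genes were bmp5, bmpr1b, chrdl1, fst, gdf5, id2, msx1 and msx2 for the first comparison, bmp5, bmpr1b, chrdl1, gdf5, id2, msx2 and nog for the second and bmp5, fst and gdf5 for the third.

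The gdf5 pair showed this most plainly in its shares. Per length, the L copy supplied 33.4% and 33.0% of gdf5 transcripts in distal pools, 64.4% and 66.4% in medial pools and 49.8% and 46.9% in proximal pools, so that the segments did not overlap. The distal shares rest on few counts, 11 and 6 of gdf5.L and 18 and 10 of gdf5.S, and are imprecise. The L minus S difference in log2 change of gdf5 was -1.82 (limma adjusted p = 0.000741, SE 0.11) for distal over medial and 1.01 (limma adjusted p = 0.00675, SE 0.11) for medial over proximal. For msx2 the L share was 43.4% and 45.2% in distal, 55.1% and 64.2% in medial and 54.5% and 57.8% in proximal pools. The S copy of msx2 changed more between distal and medial segments, with an L minus S difference of -0.89 (limma adjusted p = 0.0241, SE 0.20). For msx1 the L share was 57.4% and 61.1% in distal, 55.3% and 52.9% in medial and 46.9% and 43.7% in proximal pools. Here it was the L copy that was higher at the tip, and the L minus S difference for distal over proximal was 0.81 (limma adjusted p = 0.00669, SE 0.13). For bmpr1b the L share was 64.7% and 61.1% in distal, 50.2% and 49.2% in medial and 52.5% and 48.4% in proximal pools (L minus S difference for distal over medial 0.78, limma adjusted p = 0.00958, SE 0.13). The bmp5 and chrdl1 pairs were uneven throughout, with mean L shares of at least 84.6% and 95.8% per length in every segment. In those pairs and for gdf5 in the distal segment, the prior count of 2 added to the counts damped the tested difference of the rare copy. The limma SE of a pair was the same in every comparison (0.11 for gdf5, 0.13 for bmp5 and 0.14 for chrdl1). It did not widen where counts were few, so the SE and adjusted p of these 3 pairs overstate the precision in distal. For gdf5.L alone, the edgeR SE for distal over medial was 0.21. The number of pairs called moved with single libraries: between distal and medial it was 4 without medial pool 2, and between medial and proximal it was 1 without proximal pool 1 and 1 without proximal pool 2.

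**Figure D5:**
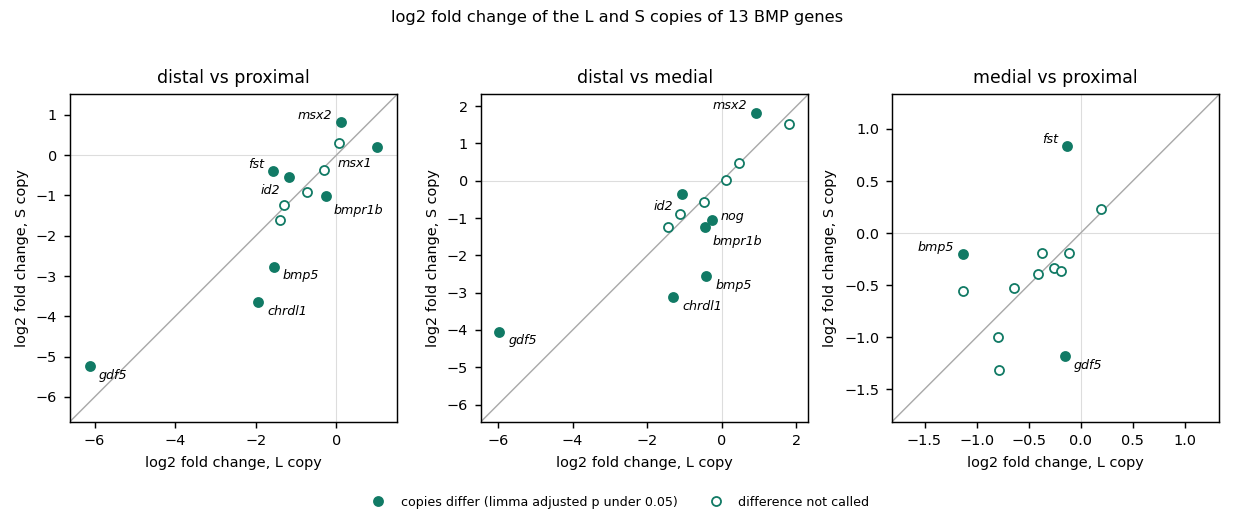
The log2 fold change of the S copy (y axis) is plotted against that of the L copy (x axis) for the 13 genes with both copies, in a panel for each comparison of segments. Filled points mark genes whose copies differed by the limma test (8, 7 and 3 genes), and the diagonal marks equal change; fst lies on opposite sides of 0 in the third panel.

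Other genes of BMP, activin and TGF-beta signalling were taken from a list of receptors, transducers, secreted modulators, inhibitors, ligands and responding transcription factors, of which 65 copies were named and tested. Between distal and proximal segments 58 were called (20 higher, 38 lower in distal), between distal and medial 58 (17 higher, 41 lower) and between medial and proximal 21 (12 higher, 9 lower in medial). They too come only from the authors' deposited table of calls, and the backgrounds given above hold for them. Those were 88.3%, 76.8% and 26.6% of named genes called (29.5%, 25.0% and 7.60% of all genes tested). All 11 receptor and co-receptor copies (of acvr1, acvr2a, acvrl1, tgfbr3, rgma, rgmb and neo1) were called lower in distal than in medial segments, as both bmpr1b copies were. The background was 41.1% of named genes and 12.9% of all genes tested. Between distal and proximal segments 7 of the 11 (63.6%) were called, all lower in distal. This was below the 88.3% of named genes called there, of which 49.0% of named genes were lower in distal. Among all genes tested these shares were 29.5% and 15.9%. The acvrl1 copies were not called there, with log2 fold changes of 0.48 (acvrl1.S) and 0.11 (acvrl1.L). With 4-fold changes as the limit for naming, 20 copies qualified.

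Several of these were extracellular BMP modulators with steep gradients. The BMP antagonist nbl1.L (DAN) was at 383 and 390 CPM in distal, 125 and 96.7 CPM in medial and 90.7 and 74.8 CPM in proximal pools, the same direction as grem1.L, which belongs to the same protein family (log2 fold change of nbl1.L for distal over proximal 2.23, edgeR adjusted p = 8.16e-07). Its S copy had a log2 fold change of 2.70 (edgeR adjusted p = 2.77e-05). The proteoglycan biglycan, which can bind BMPs, had 1436 and 1460 CPM of bgn.S in distal, 323 and 242 CPM in medial and 203 and 143 CPM in proximal pools. Its L copy changed less, below the 4-fold limit. The level of bgn.L was 920 and 953 CPM in distal, 481 and 400 CPM in medial and 604 and 542 CPM in proximal pools. In the other direction, smoc1.L, a matricellular protein that antagonises BMP signalling in Xenopus, was at 25.2 and 23.9 CPM in distal, 60.1 and 60.0 CPM in medial and 130 and 135 CPM in proximal pools (log2 fold change for distal over proximal -2.43, edgeR adjusted p = 1.29e-08). The WNT and BMP antagonist sostdc1.S was at 2.38 and 1.82 CPM in distal, 23.5 and 19.6 CPM in medial and 24.6 and 23.9 CPM in proximal pools (log2 fold change -3.49, edgeR adjusted p = 6.80e-08). Its L copy, below the 4-fold limit, was at 28.7 and 24.9 CPM in distal, 29.3 and 24.5 CPM in medial and 47.7 and 39.3 CPM in proximal pools. Distal and medial pools of sostdc1.L overlapped. Also lower in distal than in proximal by at least 4-fold were smoc1.S, htra1.L, tgfb2.S, gata2.L, gata2.S, zeb2.L and both gene IDs named zeb2.S, with log2 fold changes from -3.36 (zeb2.L) to -2.08 (tgfb2.S). The serine protease copy htra3.L was higher in distal (log2 fold change 2.35, edgeR adjusted p = 4.34e-05), whereas htra3.S had at most 1 count in the distal pools and was at least 4.67-fold lower than in medial (floor of 3 counts in a library). Higher at the tip were also the activin subunit inhbb.S (log2 fold change for distal over medial 2.93, edgeR adjusted p = 1.02e-05), the osteoblast factor sp7.L (2.97 over proximal, edgeR adjusted p = 8.18e-06), sp7.S (3.27, edgeR adjusted p = 0.00211), hand2.L (2.58, edgeR adjusted p = 1.45e-07) and hand2.S (2.77, edgeR adjusted p = 8.85e-08).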

How the data were processed

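RNA from distal, medial and proximal segments (2 pools each) was sequenced. The authors deposited raw fragment counts per gene and gene lengths (other values, in bp), counted with featureCounts 2.0.1 in paired-end mode per the file headers. Trimmomatic 0.39 and HISAT2 2.2.1 are named in the submitters' processing notes; the genome build is not given in the sources used here. With the recorded settings, fragments mapping to several places or to several genes were not counted and strand was not used. Shares assigned to genes were 75.7% to 78.2%. The authors also deposited a table of calls with log2 fold changes and adjusted p-values, which pairs gene IDs with names.

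Genes were kept by filterByExpr on the segments, with a minimum count of 10 and a minimum total of 15, and the counts were scaled with TMM factors and tested with edgeR 4.0.16 in R 4.3.3 (quasi-likelihood, robust, all 6 libraries, segment as the factor, 3 residual degrees of freedom). Each SE is the size of the log2 fold change divided by the root of F. P-values were adjusted over all 27007 genes by the Benjamini-Hochberg method. L and S copies were compared with limma 3.58.1 on log2 CPM (prior count 2). CPM per kb divides by annotated exon length. Of the 36 copies, 25 are given with every library: all copies of bmp2, bmp4, grem1, nog, bmpr1b, msx1 and msx2, and those called at 2-fold or more with at least 1 CPM. The copy bmp3.S was added after its values were seen. Pathway genes are named from a 4-fold called change, and bgn.L and sostdc1.L were added beside their other copies. All 36 names matched RefSeq symbols (Xenopus_laevis_v10.1). The members, gene lists and tests were chosen with earlier results of these data known. Tests were tried on simulated counts, where false calls exceeded the nominal rate when spread differed between genes. Alternatives were RLE factors, other filters, DESeq2 1.42.0, a replicate block, other prior counts, fits of the 4 libraries compared and leaving out each pool.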

Additional observations from a re-analysis of the deposited data

How the results depend on the processing

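No log2 fold change of the 36 copies changed sign under any alternative where it was called. Of 1287 values (108 per setting, fewer under the strictest filter), 1199 stayed on their side of the threshold, 73 lost their call and 15 gained it. RLE factors moved none. Calls that held under every alternative numbered 24 of 27 for distal against proximal, 22 of 30 for distal against medial and 11 of 20 for medial against proximal. Leaving out single pools gave 24 to 29, 23 to 30 and 11 to 16 copies called in these comparisons (12 between medial and proximal without proximal pool 1, and 11 without proximal pool 2). The copies differing between L and S numbered 7 to 8, 4 to 7 and 1 to 3. DESeq2 called 26, 30 and 16 copies. The depth of proximal pool 1 and the 2 pools per segment limit small differences, and rare copies (bmp5.S, chrdl1.S and gdf5 in distal) rest on few counts.

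In the labels, pool 1 of every segment is titled Black and pool 2 Red, but no label says what the colours mark. The deviations of same-coloured pools correlated at 0.03 (distal and proximal), 0.05 (distal and medial) and 0.20 (medial and proximal), so pairing was not established and was not used in the tests reported. In the fit with a replicate block for pool number, 29 copies were called between distal and proximal, 30 between distal and medial and 21 between medial and proximal. It added calls of id3.L (adjusted p = 0.0387) and smad6.S (0.0290) between distal and proximal and of id4.L (0.0128) between medial and proximal, and removed none. Copies differing between L and S numbered 8, 7 and 3 with the replicate block, and pathway genes called numbered 61, 60 and 30.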

Other observations

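Some BMP genes carry names just outside the pattern that chose the set and were picked after their values were seen. The ligand copy bmp7.1.L was at 65.7 and 65.6 CPM in distal, 29.5 and 22.0 CPM in medial and 37.0 and 30.2 CPM in proximal pools. Like bmp2.S it was highest in distal, and both medial pools were below both proximal pools. The log2 fold change was 0.98 (edgeR adjusted p = 0.000576) for distal over proximal, 1.35 (edgeR adjusted p = 9.21e-05) for distal over medial and -0.37 for medial over proximal, which was not called (edgeR adjusted p = 0.209). The noggin-related copies nog2.L and nog2.S were lower in distal than in proximal, with log2 fold changes of -2.57 (edgeR adjusted p = 2.31e-06) and -2.56 (edgeR adjusted p = 4.23e-06), the same direction as nog.L and nog.S. The chordin copy chrd.1.S was rare, with 2 and 4 counts in distal, 22 and 16 in medial and 17 and 36 in proximal pools.

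The membrane pseudoreceptor bambi, which lowers BMP signalling and is itself a BMP target, was lowest in the medial segment in both copies, as the msx copies were. The copy bambi.L was at 61.9 and 54.4 CPM in distal, 30.7 and 29.0 CPM in medial and 44.0 and 40.9 CPM in proximal pools. The log2 fold change of distal over medial was 0.96 for bambi.L (edgeR adjusted p = 3.32e-05) and 1.15 for bambi.S (edgeR adjusted p = 9.74e-06). For medial over proximal it was -0.50 (edgeR adjusted p = 0.00917) and -0.51 (edgeR adjusted p = 0.00961). The Notch and BMP target hey1 was also lowest in the medial segment, at 15.8 and 15.5 CPM in distal, 6.53 and 8.09 CPM in medial and 18.5 and 16.8 CPM in proximal pools for hey1.L. These copies were picked from the pathway list after their values were seen, and other copies of that list went the other way. Of its 20 copies of transcription factors linked to BMP response, 6 (30%) were called between medial and proximal segments. That is near the share of named genes called there, 26.6% (7.60% of all genes tested). Of these 6, 4 were higher in medial and 2, the hey1 copies, were lower. The copy dlx5.L had its highest mean in medial (log2 fold change for medial over proximal 1.16, edgeR adjusted p = 0.000337).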
